A study of Mus musculus with 8 samples.

Results

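Zmat3-bound RNA was sought by cross-linking and immunoprecipitation (CLIP) in mouse embryonic fibroblasts, and the peaks described here lay in the spans of long non-coding RNA (lncRNA) genes. A called peak was taken when it lay on an autosome, when its midpoint fell in the span of a RefSeq lncRNA gene and of no protein-coding gene, and when it overlapped no non-coding gene of at most 500 nt. The nuclear RNAs Malat1 and Neat1 were left out. The rule gave 7619 of the 978429 called peaks in 7 lists (0.779%), and these lay in 301 of the 12406 autosomal lncRNA genes of the annotation (2.43%). Whether a peak lay in an exon or an intron was not analysed here.

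All lines were fibroblasts transformed with retroviral E1A and HrasG12V. The 3 control lines also carried Cas9 and a negative control guide RNA, named EV in control 1, SPA in control 2 and ACOCA in control 3. The knockout was 1 line of genotype Zmat3-/-;E1A;HrasG12V with no guide, and its genotype label lists no Cas9. Genotype, Cas9 with a guide, and line therefore cannot be told apart. Each of the 4 lines had 1 immunoprecipitated (IP) sample, taken with an antibody to Zmat3, and 1 input sample. RNA was recovered from gel between 35 and 110 kDa. The input samples entered only as the comparator of the IP lists. There were 4 lists of IP over its own input and 3 lists of a control IP over the knockout IP. The latter share the 1 knockout library, and they hold the control's peaks only.

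LncRNAs are transcripts without a long open reading frame, and many are spliced, kept in the nucleus and weakly expressed. Some are the primary transcripts of microRNAs, in which the Microprocessor complex cuts out a hairpin and leaves flanking pieces, and others carry small nucleolar RNAs (snoRNAs) in their introns. Zmat3 is a zinc-finger RNA-binding protein and a transcriptional target of p53, known for effects on splicing and on the stability of AU-rich transcripts. A peak in the knockout IP marks RNA recovered in cells of the knockout genotype.

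The hairpins beside 9 of the 11 enriched knockout peaks are shown first, because most enriched lncRNA peaks of the knockout library fell within 2000 nt of them. Capitals mark the parts of each hairpin that become mature microRNAs. Sequences and coordinates are those of RefSeq on GRCm38.p6. Mir22 (chr11:75463716-75463810, plus strand) lies in Mir22hg, Mir125b-1 (chr9:41581926-41582002, plus strand) in Mir100hg, and Mir92-1 (chr14:115044427-115044506, plus strand) in Mir17hg. Peaks that overlap the hairpins themselves are not members, so the members are the flanks.
Mir22: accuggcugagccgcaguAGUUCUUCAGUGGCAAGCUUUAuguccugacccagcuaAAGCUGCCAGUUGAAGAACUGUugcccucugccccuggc
Mir125b-1: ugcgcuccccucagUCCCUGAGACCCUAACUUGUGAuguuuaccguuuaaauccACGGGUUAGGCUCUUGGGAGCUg
Mir92-1: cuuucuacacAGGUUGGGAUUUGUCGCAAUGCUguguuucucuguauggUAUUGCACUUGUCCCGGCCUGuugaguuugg

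The best-known mature arm of each hairpin is shown with its seed, bases 2 to 8, in capitals. No seed was shared among them.
miR-22-3p: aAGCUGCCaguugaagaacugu
miR-125b-5p: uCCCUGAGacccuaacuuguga
miR-92a-3p: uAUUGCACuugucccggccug

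LncRNA peaks made up under 0.8% of called peaks in every IP. They numbered 1028 of 129323 peaks in control 1, 1208 of 153768 in control 2, 906 of 122284 in control 3 and 1337 of 167648 in the knockout. The shares were 0.795%, 0.786% and 0.741% in the controls, a mean of 0.774% ± 0.0289 (SD, n = 3), and 0.798% in the knockout. The knockout share lay just above all 3 controls, and the exact two-sided permutation test gave p = 0.5. With 3 libraries against 1 the smallest p this test can give is 0.25. Of the 301 genes, 85 had a peak in all 4 IPs, 17 in all 3 controls but not the knockout, and 43 in the knockout only. Those 43 are among 104 genes with a peak in 1 IP only. The knockout list held the most peaks, and the matching counts over all genes are not given here. The gene counts are therefore not read as a trait of lncRNA genes. In bulk samples such as these, fewer cells of a type and less RNA per cell cannot be told apart. Library depth is unknown, since the lists hold no counts of reads.

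The cell type was checked by the peaks called in marker genes. Of 10 fibroblast genes, 4 to 6 had a peak in each IP, most of them in Fn1 (59 to 79 peaks), Sparc (18 to 28) and Vim (13 to 21). Pdgfrb, a receptor of fibroblasts and pericytes, had 16, 12 and 10 in the controls but only 2 in the knockout. The collagen genes Col1a1 and Col1a2 had 0. Of the 4 epithelial genes, 1 to 3 had a peak, led by Epcam (5 to 11), and their summed peaks were 9, 10 and 12 in controls 1 to 3 and 19 in the knockout. The part of these marker differences in the results was not tested. Endothelial and neural genes had 0 peaks, and of the haematopoietic genes only Cd68 had any. Zmat3 itself had 42, 48 and 39 peaks in the controls and 38 in the knockout, so called peaks in its span do not check the knockout label.

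LncRNA peaks stood higher over input than the average peak, in the knockout as well, but not over the knockout IP. Values are the authors' log2 fold of each peak, as read from lists without column names. Over input the median lncRNA peak was at 1.31 in control 1, 1.02 in control 2, 1.01 in control 3 and 0.38 in the knockout. All called peaks had medians of 0.90, 0.60, 0.60 and 0.23. The difference was 0.42 in each of the 3 controls and 0.15 in the knockout (exact two-sided permutation p = 0.25, the smallest possible). The folds fall on shared steps, so that the 3 control differences are equal: the 4 commonest values held 39.6%, 39.2%, 45.7% and 39.0% of the lncRNA peaks. Against the knockout IP the order turned: lncRNA peaks had medians of 1.01, 0.71 and 0.78, against 1.18, 0.88 and 1.00 for all peaks, a difference of -0.19 ± 0.03 (SD, n = 3). That sign rests on Pvt1, which held 23.7% to 29.8% of the lncRNA peaks over input. Without Pvt1 the mean difference was 0.06, and with 1 median per gene it was 0.42.

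**Figure D1:**
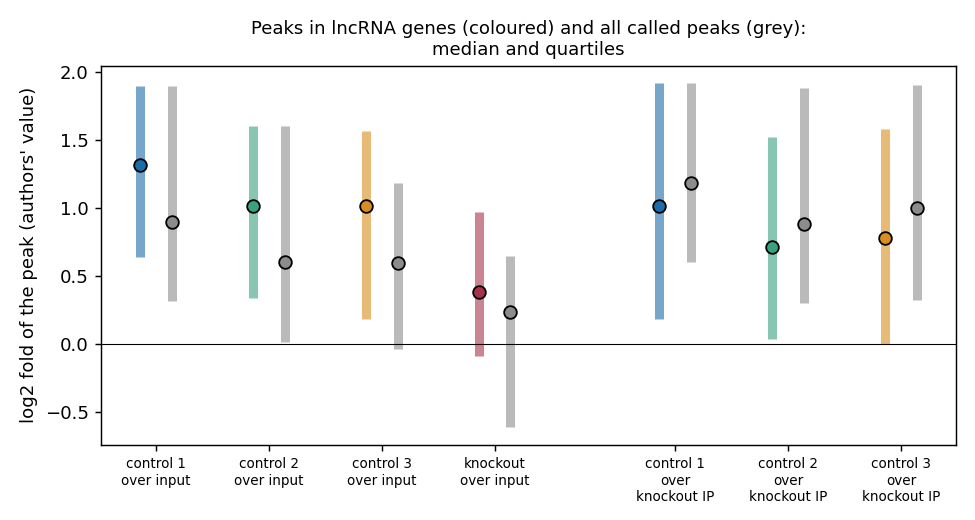
Median (point) and quartiles (bar) of the log2 fold of peaks in lncRNA genes (coloured) and of all called peaks (grey), for the 4 lists over input and the 3 lists over the knockout IP. Coloured points lie above grey ones over input, by 0.42 in each control and 0.15 in the knockout, and below them over the knockout IP.

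Enriched peaks were those with a log2 fold of 3 or more and a -log10 p of 3 or more. Over input 17 lncRNA peaks passed in control 1 (1.65%), 15 in control 2 (1.24%), 5 in control 3 (0.552%) and 11 in the knockout (0.823%). Among all called peaks 1.02%, 1.05%, 0.494% and 0.316% passed. The share of lncRNA peaks was thus near the background in controls 2 and 3 and above it in control 1 and the knockout. Abutting peaks count separately, as do 3 in Gm46595 in control 1 and 2 there in the knockout. The shares are therefore of peaks and not of separate sites. The control mean was 1.15% ± 0.557 (SD, n = 3), and it did not differ from the knockout beyond that spread (exact two-sided permutation p = 0.75). LncRNA peaks made up 1.29%, 0.925% and 0.828% of all enriched peaks in the controls and 2.08% in the knockout (exact two-sided permutation p = 0.25, the smallest possible). In the lists over the knockout IP 5, 9 and 4 lncRNA peaks passed (0.487%, 0.745% and 0.442%), beside 0.621%, 1.09% and 0.648% of all peaks. No lncRNA region passed over both input and the knockout IP in at least 2 controls. With a log2 fold of at least 2 there were 2 such regions, in Pvt1 (all 3 controls) and in 5430416N02Rik (controls 2 and 3). These counts stand without a matching count over all called peaks, so whether they are particular to lncRNA genes was not tested.

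The knockout's own enriched lncRNA peaks lay in 4 genes, and 9 of the 11 (81.8%) were within 2000 nt of a microRNA hairpin on the same strand. Mir100hg, host of miR-125b, held 6 of them, Mir22hg, host of miR-22, held 2, Mir17hg, host of the miR-17 to miR-92 cluster, held 1, and Gm46595, a gene model with no functional name, held the remaining 2. In the controls 5 of 17, 2 of 15 and 1 of 5 enriched peaks were that close to a hairpin. Some of the knockout peaks abut, as do chr9:41582254-41582297 and chr9:41582298-41582340 in Mir100hg, so they are not all separate sites. The distance of 2000 nt was chosen after these peaks had been seen, so the counts are given with no test.

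Members near a hairpin were few in every library, 36, 45 and 26 in the controls and 57 in the knockout (3.50%, 3.73%, 2.87% and 4.26% of the lncRNA peaks). Their median over input exceeded that of all peaks by 1.08, 1.17 and 1.00 in the controls and by 1.66 in the knockout. Enriched peaks made up 13.9%, 4.44% and 3.85% of them in controls 1 to 3 and 15.8% in the knockout, and 1.21%, 1.12%, 0.455% and 0.156% of the lncRNA peaks farther away. The near peaks had medians of -0.27, -0.29 and -0.66 over the knockout IP, a mean difference from all peaks of -1.43 ± 0.24 (SD, n = 3). Over input the excess of the knockout over the controls rested on Mir100hg and Mir22hg, whereas the difference over the knockout IP did not rest on them alone. Without those 2 hosts the near peaks exceeded the median of all peaks by 1.00, 1.00 and 0.63 in the controls and by 1.06 in the knockout. Over the knockout IP they stayed at -0.93, -0.78 and -1.17 relative to all peaks, against -1.46, -1.17 and -1.65 with the hosts included.

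Mir22hg (chr11:75461539-75466690) had 9, 8 and 9 peaks in the control lines, and the knockout had 14. The leading site, chr11:75463863-75464016, begins 53 nt past the Mir22 hairpin printed above. Its highest peak over input was at 3.05 in control 1, 2.98 in control 2, 4.12 in control 3 and 3.28 in the knockout, so the groups overlapped. The same site was at -1.91, -1.25 and -1.93 over the knockout IP. The highest Mir22hg peak of all was a knockout one, 1178 nt past the hairpin, at 4.40.

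In Mir100hg (chr9:41376526-41615185), 9, 21 and 10 peaks were called in controls 1 to 3 and 38 in the knockout. The site at chr9:41582155-41582468, downstream of Mir125b-1, was at 3.22, 3.24 and 2.44 over input in the controls and at 3.89 in the knockout. Set against the knockout IP it was at -2.17, -0.87 and -2.06. The knockout peak lay above all 3 controls over input. The highest knockout peak there, 489 nt past the hairpin, was at 4.14, and an overlapping peak of control 2 was at 4.10. Mir17hg had 1 peak in each IP, at 2.84, 2.95 and 1.77 in the controls and at 3.29 in the knockout. These were not 1 site: the knockout peak began 197 nt past Mir92-1 and overlapped no control peak. The control peaks began 404, 426 and 482 nt past it.

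**Figure D2:**
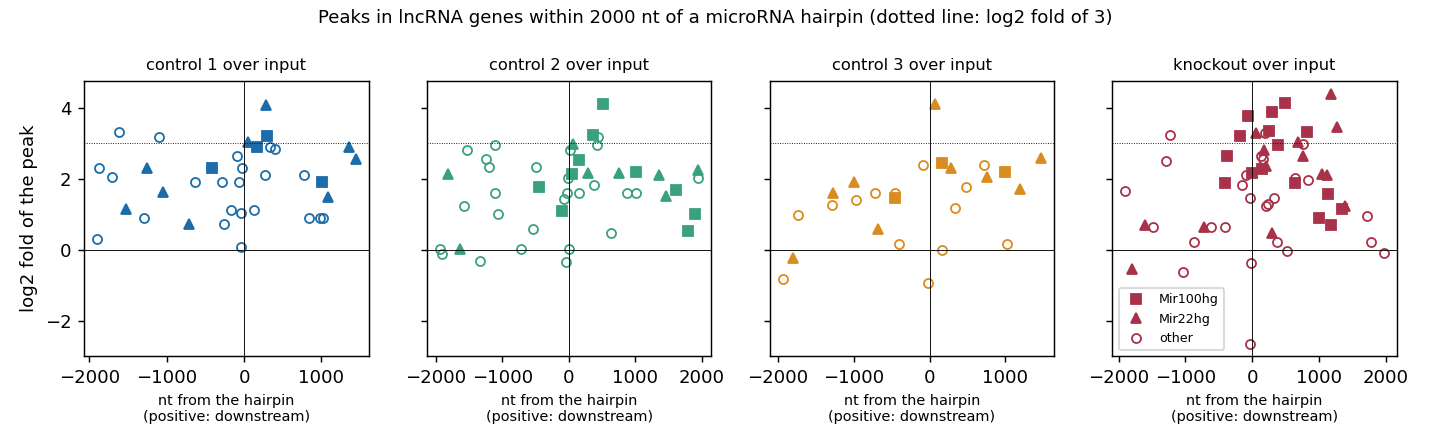
Log2 fold over input of each lncRNA peak within 2000 nt of a same-strand microRNA hairpin, against its distance from the hairpin in nt, in the 4 IPs. Squares are Mir100hg, triangles Mir22hg and open circles other genes. Of the 9 enriched knockout peaks, 7 lie downstream of the hairpin and 2 upstream.

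Among sites called in all 3 controls, the highest by their lowest control lay on the strand opposite to the lncRNA gene. A site in the span of Gm46595 (chr17:70963653-70963804, plus strand; the gene is on the minus strand) was at 4.94, 3.50 and 4.30 over input in the controls and at 4.60 in the knockout. Knockout and controls overlapped there by the fold itself, while relative to all called peaks of each list the knockout (4.37) was above the controls (4.04, 2.90 and 3.70). It was at 1.23, 0.56 and 0.46 over the knockout IP. The nearest coding gene in the annotation, Myl12b, a myosin light chain gene, lay about 10 kb away.

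The next site, in the span of Gm15564 (chr16:35981567-35981671, plus strand; the gene is on the minus strand), was at 4.53, 2.99 and 3.16 over input in the controls. The knockout, at 2.27, was below all of them. Set against the knockout IP it was at 1.01, 0.64 and 0.24, under the median of all peaks in each list. The nearest coding gene, Kpna1, which encodes an importin alpha, lay about 1.6 kb away. In 6030442K20Rik, a gene model near Rbbp5, the leading site was at 4.71, 3.48 and 2.77 over input in the controls and at 1.97 in the knockout, and at 1.53, 0.43 and 1.25 over the knockout IP. Where the gene strand was known, 91.2% to 93.8% of lncRNA peaks lay on it, but 6, 2, 4 and 2 of the enriched peaks over input (controls 1 to 3, then knockout) lay opposite.

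**Figure D3:**
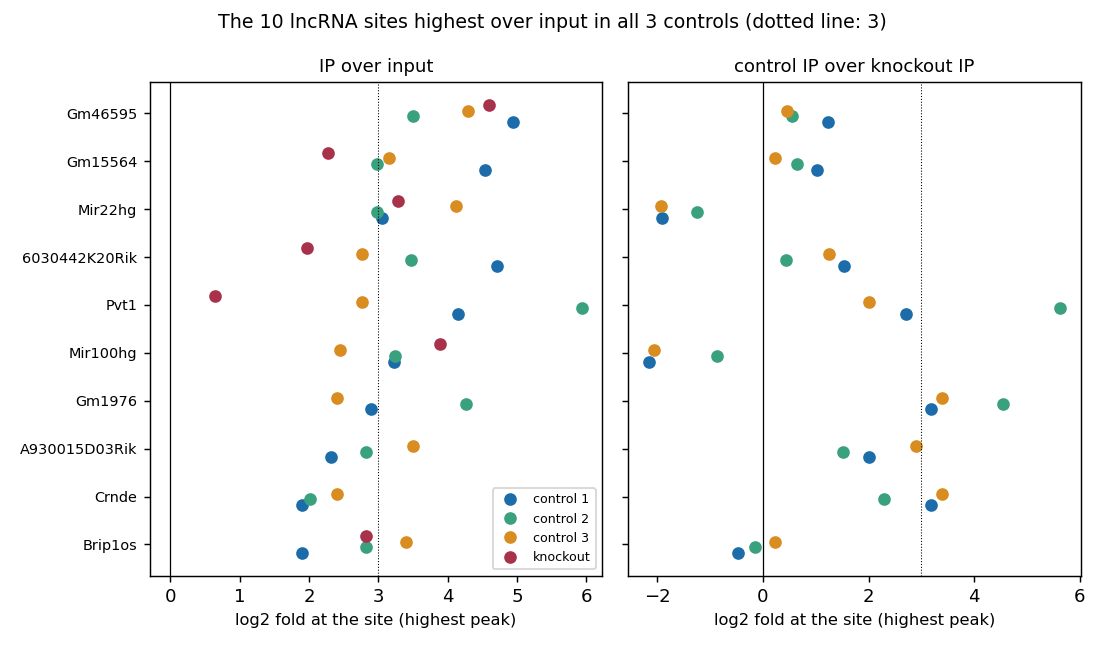
Log2 fold of the highest peak at each of the 10 sites that stood highest over input in all 3 controls, over input (left) and over the knockout IP (right). Each point is 1 library. The Pvt1 site is high in all controls and at 0.65 in the knockout, while Mir22hg and Mir100hg lie below 0 over the knockout IP.

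Pvt1, a long gene next to Myc, held the site with the largest gap between the controls and the knockout among those 10 sites that the knockout also had called. Its span (chr15:62037986-62260215, 222230 nt) held 244, 336 and 232 peaks in the controls and 399 in the knockout, every one on the plus strand. The site at chr15:62242013-62242136, 204 kb from the low-coordinate end, was at 4.16 in control 1, 5.93 in control 2, 2.77 in control 3 and 0.65 in the knockout over input. All 3 controls were above the knockout, and control 2 was highest. The knockout peak did not overlap the control 2 peak at 5.93, but it overlapped the other control 2 peak of the site, at 5.74. In each control it ranked 1 among the Pvt1 peaks over input, tied in control 3 with 3 other peaks at 2.77. In the knockout it ranked 170, tied with 26 other peaks. The site was named for its high control values over input, so these ranks and the gap to the knockout follow in part from that choice. The other Pvt1 peaks had medians of 0.90, 0.69, 0.92 and 0.54. The site was at 2.70, 5.63 and 2.02 over the knockout IP, against medians of 0.22, 0.30 and -0.07 for the other peaks. There it ranked 2, 1 and 4 among the Pvt1 peaks, of which others reached 2.92 in control 1 and 2.58 in control 3. It passed both thresholds over both comparators in control 2 alone.

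**Figure D4:**
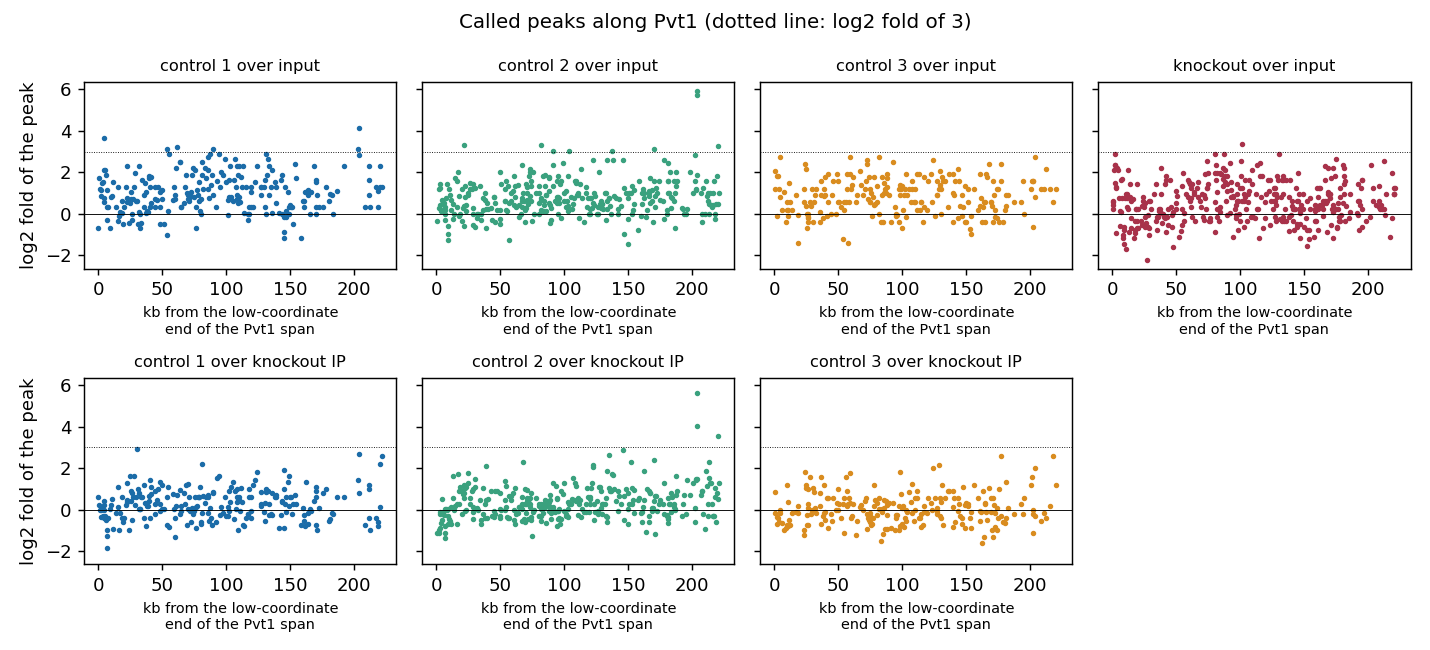
Log2 fold of each called peak along Pvt1, in kb from the low-coordinate end of its span, over input (top, 4 IPs) and over the knockout IP (bottom, 3 controls). The site near 204 kb reaches 5.93 over input in control 2 and is at 0.65 in the knockout, amid a band of low peaks over the whole span.

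Other genes with high peaks over the knockout IP had no knockout peak at the site. They were named for those high values, so the lack of a knockout peak follows in part from that choice. Of the lncRNA sites called in all 3 controls, 46 had no knockout peak and 90 had one. Gm1976, a gene model on chromosome 17 (site chr17:94820439-94820528, minus strand), was at 3.18, 4.55 and 3.39 over the knockout IP and at 2.90, 4.26 and 2.40 over input. Its -log10 p over the knockout IP was 1.74, 5.55 and 2.07, so it passed in control 2 alone. The lncRNA Crnde, known for high levels in tumours, was at 3.18, 2.30 and 3.39 over the knockout IP and at 1.90, 2.02 and 2.40 over input, and no control passed the p threshold. These p-values are the caller's own and rest on reads within 1 pair of libraries.

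Some sites stood high over the knockout IP but not over input. In 4930525G20Rik, opposite to the gene's strand, the site chr13:67810862-67810947 was at 4.18, 3.10 and 4.04 over the knockout IP but at 1.09, -1.08 and 1.47 over input. In Gm35446 the site was at 2.60, 2.88 and 2.90 over the knockout IP and at -0.01, -0.21 and 0.33 over input. Foxl2os, named for the strand opposite to the ovarian transcription factor gene Foxl2, had 8, 5 and 8 peaks in the controls and 0 in the knockout. Its leading site was at 4.18, 1.88 and 3.17 over the knockout IP and at 1.58, 1.60 and 0.60 over input. How far the RNA level of these genes in the 2 genotypes enters those values was not tested.

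In all, 5 genes passed over both comparators in 1 control. The matching count over all genes is not given here. Control 1 gave 9530026P05Rik (chr6:93004211-93004291, 3.90 over input). Control 2 gave Pvt1, Gm1976, Gm12610 (chr4:89383058-89383153, 3.41) and Chn1os3 (chr2:73598719-73598822, 3.92). The peak of 9530026P05Rik shares its fold and p with 106 other peaks of that list, and that of Chn1os3 with 77, whereas the 2 peaks at the Pvt1 site share theirs with 0.

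The 10 genes with most control peaks held a wide range over the knockout IP. After Pvt1 came Morrbid, an lncRNA known for limiting Bcl2l11 in myeloid cells, with 119, 115 and 96 peaks in the controls and 96 in the knockout. Its median peak was at 1.31, 0.75, 0.92 and 0.65 over input, and at 1.34, 1.03 and 1.17 over the knockout IP, close to all peaks. Airn, the imprinted transcript that overlaps Igf2r, had 21, 56 and 23 peaks in the controls and 67 in the knockout, with medians of 0.90, 0.79, 0.60 and 0.23 over input. Over the knockout IP Airn was at -0.95, -0.40 and -0.79 relative to all peaks. Lncpint, a p53-induced lncRNA, had 26, 38, 34 and 37 peaks, with medians of 1.01, 0.82, 0.87 and 0.65. Peaks of 2610035D17Rik also count for LOC115487747 where these genes' spans overlap.

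Gm12610, a gene model in the region of Cdkn2b, stood apart. It had 19, 24 and 18 peaks in the controls and 3 in the knockout. Over input its medians were 1.90, 1.02 and 1.05 in the controls and -0.94 in the knockout. They were 2.18, 1.88 and 2.17 over the knockout IP, which is 1.06 ± 0.10 (SD, n = 3) above all peaks. Its site at chr4:89396151-89396227 was at 3.60, 3.998 and 2.58 over the knockout IP, and the knockout had no peak there. Among the 22 lncRNA genes with at least 5 peaks in every control, it was the only gene above all peaks by over 0.5 in all 3 lists. That rule was chosen after the values were seen, and it asks for peaks in the controls only. Gm12610 thus entered through the controls, where it has most of its peaks. The share of all genes that would pass is not given here.

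By the same rule 6 genes lay below. They were Mir100hg (-2.50 ± 0.78), Mir22hg (-1.91 ± 0.56), LOC115487747 (-1.31 ± 0.46), Dleu2, host of miR-15a and miR-16-1 (-1.19 ± 0.35), 2610035D17Rik (-0.99 ± 0.35) and Pvt1 (-0.86 ± 0.24), each a mean difference of medians on the log2 scale (SD, n = 3). LOC115487747 and 2610035D17Rik share peaks, so the 6 genes are not all separate loci. In each of the 6 the knockout had the most peaks of the 4 IPs. Over input the median was above that of all peaks in all 4 IPs, except for Pvt1 in control 1, where it equalled it.

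**Figure D5:**
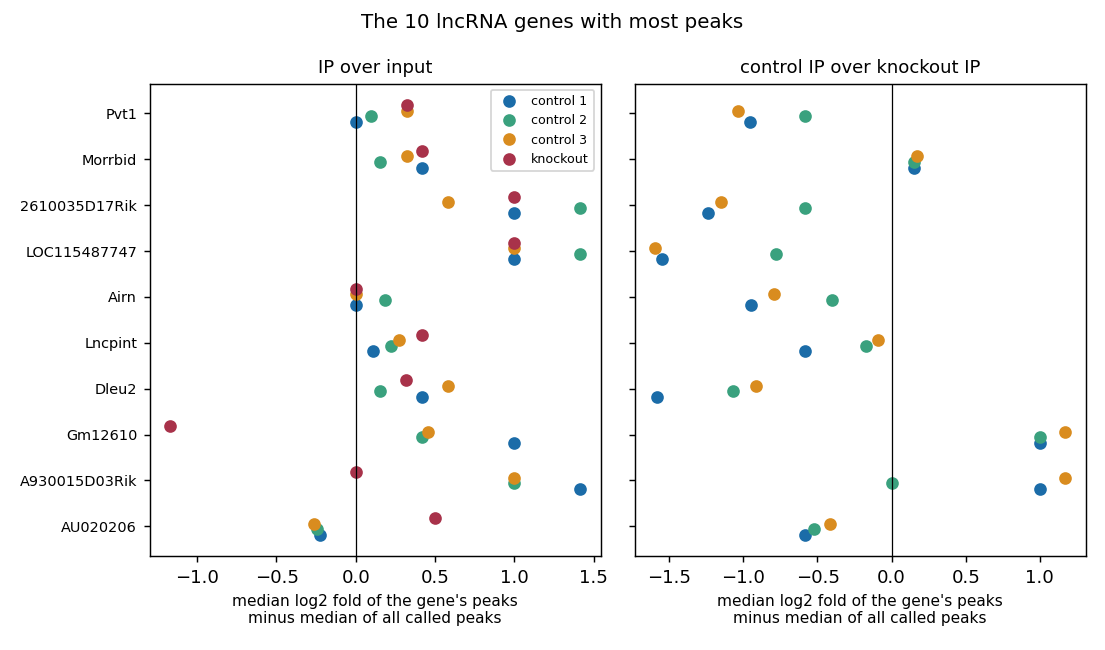
Median log2 fold of the peaks of the 10 lncRNA genes with most control peaks, minus the median of all called peaks of the same list, over input (left) and over the knockout IP (right). Each point is 1 library. Gm12610 is low in the knockout over input. Dleu2, Pvt1, LOC115487747, 2610035D17Rik and Airn are among the genes that lie left of 0 over the knockout IP.

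The members with a peak were counted in each listed class of lncRNA. Of all autosomal lncRNA genes 2.43% had a peak, and of 11928 with a Gm, Rik or LOC symbol 234 had one (1.96%). The lists were chosen with earlier results of these data known. Their shares are therefore not read as a difference between classes. Of 21 snoRNA hosts 9 had one, 26, 20 and 23 peaks in the controls and 23 in the knockout, and 0 were enriched in any list. Their median over input minus that of all peaks was -0.78, -0.55 and -1.13 for the controls and -1.83 for the knockout. Dancr, a snoRNA host, had medians of 0.11, -0.09 and -1.05 over input in the controls and -2.27 in the knockout. Snhg12 was at 0.07, 0.52 and -0.38, and at -1.41 in the knockout. Snhg17 was at -0.05, -0.31 and -1.19, and at -2.18 in the knockout. For all 3 genes the controls were above the knockout, which was below 0. Relative to all peaks of the lists over the knockout IP, the hosts were at 0.53, 0.37 and -0.17.

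Of 13 genes listed as microRNA hosts 7 had a peak, and of the 41, 63, 41 and 110 peaks 3, 2, 1 and 9 passed over input. Among all called peaks 1.02%, 1.05%, 0.494% and 0.316% passed. The list counts Mirt1 as a host with a peak, and whether it is a host was not checked here. Their median over the knockout IP was -1.70, -1.29 and -1.61 relative to all peaks. This list is led in peak number by Dleu2, Mir100hg and Mir22hg, and its 9 enriched knockout peaks are those near hairpins described above. Its values are therefore not separate from those of these genes. Of 9 p53-linked lncRNAs 6 had a peak, of which Tug1 had 10, 13, 8 and 17, with medians of 0.04, 0.34, 0.37 and -0.09 over input. Trp53cor1, the lincRNA-p21 gene next to Cdkn1a, had 0, 4, 1 and 1 peaks. Of 9 imprinted lncRNAs only Airn had a peak, and of 17 conserved long intergenic RNAs 8 had one. These 2 lists and the p53-linked one are led by Pvt1 or Airn in peak number. Of 215 genes with a symbol ending in os or as, 26 had a peak, and their median over the knockout IP was 0.42, 1.00 and 0.70 above all peaks.

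Most sites were called in 1 library. Overlapping peaks over input merged into 3189 sites, of which 1632 were called in 1 control only, 761 in the knockout only, 218 in 2 controls, 46 in all 3 controls but not the knockout, 310 in 1 control and the knockout, 132 in 2 controls and the knockout, and 90 in all 4 IPs. In all, 796 sites (24.96%) were called in at least 2 IPs. At those 90 sites, in the spans of 38 genes or gene pairs, the median log2 fold over input was 1.16, 0.67 and 0.89 in the controls and 0.58 in the knockout. Relative to all called peaks of each list the direction turned, at 0.26, 0.06 and 0.30 in the controls and 0.35 in the knockout. By the fold itself each control was above the knockout at 40 of the 90 sites, and the knockout above each control at 20. Relative to all peaks these counts were 28 and 29. The same counts over all sites of the series are not given here, so they are not read as a trait of lncRNA sites. Over the knockout IP the medians of the 90 sites were -0.02, -0.12 and -0.08.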

How the data were processed

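The authors deposited 7 peak lists without a header, on mm10 per the submitters' processing notes; the aligner and the peak caller were not given in the sources used here. As no column is named, their meaning was inferred from the values: each peak in the deposited lists has a -log10 p-value, capped at 400, and a log2 fold of IP over input or over the knockout IP; neither can be taken back to read counts. The log2 fold and -log10 p were used as the authors deposited them.

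Peaks were assigned by midpoint to RefSeq gene spans (GRCm38.p6, the same build). Gene strand came from a promoter table that held 9290 of the 12406 genes, and Pvt1 was not among them. Enriched meant that the log2 fold and the -log10 p were each 3 or more. Peaks of at least 1 nt overlap on the same strand were merged into sites, and each library took its highest peak there. Shares were compared by exact permutation over libraries (3 against 1). Means ± SD are over 3 controls, and the 3 lines' spread is all that the tests measure. Counting was tested on simulated peaks.

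Genes were named by rule: the 10 with most control peaks, the 10 with the highest lowest-control fold over input and over the knockout IP at sites called in all 3 controls, genes with enriched knockout peaks, members of the lists with most peaks, and genes that passed both comparators in 1 control. The members, lists and rules were chosen with earlier results of these data known. Alternatives were other thresholds, assignment rules and left-out controls or genes. Python 3.11.15, pandas 2.3.3, scipy 1.17.1 and matplotlib 3.10.9 were used.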

Additional observations from a re-analysis of the deposited data

Results flagged for a closer look

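Gm12610 had a median log2 fold over input above 0 in all 3 controls (1.90, 1.02 and 1.05) and of -0.94 in the knockout. It was flagged because every control lay on one side of 0 and the knockout on the other. Tug1, described above, had the same pattern with values nearer 0, so the trait is not particular to Gm12610. The median of all called peaks was also lower in the knockout (0.23) than in the controls (0.90, 0.60 and 0.60). The share of all genes with such a pattern is not given here. For Gm12610 the difference was not tested: the knockout has 1 library, with 3 peaks in this gene.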

How the results depend on the processing

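Depth is unknown and 1 knockout library limits every comparison. Enriched lncRNA peaks over input, 11 in the knockout and a mean of 12.3 in the controls, became 23 and 22.7 with a log2 fold of at least 2, and 3 and 5 with at least 4. The control mean lay below the knockout count also in other settings: 7.67 against 9 with a -log10 p of at least 5, 5.67 against 9 on the gene's strand only, and 14.7 against 20 with peaks over small non-coding genes kept. Over the knockout IP the mean of 6 became 12.7 and 3.33 at those folds, 2 at that p and 3 on the gene's strand. Without each control in turn these means ran from 10 to 16 and from 4.5 to 7, and the share from 0.763% to 0.790%. Regions, 0 over both comparators in at least 2 controls, numbered 5 over input alone, 2 over the knockout IP alone and 2 with a log2 fold of at least 2, and 0 without any 1 control. The median difference over input, 0.42, was 0.57 with 1 median per gene and 0.47 with peaks of at least 30 nt or without Pvt1. Over the knockout IP, -0.19 turned to 0.42 with 1 median per gene and to 0.0566 without Pvt1, and ran from -0.20 to -0.17 without each control; the cause was not tested. The share of called peaks, 0.774% in the controls and 0.798% in the knockout, was 0.467% and 0.471% on the gene's strand, 0.881% and 0.891% with small genes kept, and 0.575% and 0.560% without Pvt1. Sites called in all 4 IPs numbered 142 in place of 90 with small genes kept. Within 500 nt of a hairpin, an alternative chosen after seeing the data, the enriched peaks of controls 1 and 2 numbered 3 and 1 in place of 5 and 2. No paired analysis was possible because the knockout has 1 library, so the groups share fewer than 2 replicate numbers.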

Other observations

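Some lncRNA genes had peaks in some control lines and not in others. These genes were chosen after their values were seen. E030011O05Rik had 12 peaks in control 1, 0 in control 2, 13 in control 3 and 2 in the knockout. Gm53, beside the Hoxb genes, had 0, 18 and 0 peaks in the controls and 6 in the knockout. Its peaks in control 2 had a median of 1.29 (log2 fold) in the list over input and of 2.20 in that over the knockout IP, and 2 of them were enriched over the knockout IP. The difference between control lines was not tested, since each line has 1 IP.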
